A study of Arabidopsis thaliana with 6 samples.

Results

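The genes described here are the members of membrane traffic families that the arrays of this study measured one by one. A gene was taken when the array annotation paired a probe set with exactly 1 gene whose symbol began with PRA1, VPS, SYP, VAMP, EXO70, SEC or RAB followed by a digit, letter or dot. The rule found 30 of the 13356 genes with such a probe set, each with 1 probe set. They were 9 PRA1, 10 VPS, 10 SEC and 1 RAB gene, and no SYP, VAMP or EXO70 gene was among them. The TAIR10.1 gene table holds 168 symbols of these stems, so most family members were not analysed here, and SEC22 was the only SNARE among the 30. A further 3 probe sets carrying a PRA1 or SEC gene were paired with several genes and were not used. SECA2 and SECE1 share the SEC stem but belong to protein transport inside the plastid, and they are described apart.

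Membrane traffic moves proteins and lipids between the endoplasmic reticulum, the Golgi, endosomes, the vacuole and the cell surface. Rab GTPases mark the membranes, and PRA1 proteins (prenylated Rab acceptors) are small membrane proteins that bind Rab GTPases carrying a lipid anchor. Exocyst subunits tether secretory vesicles to the plasma membrane, SNAREs and Sec1-type proteins drive fusion, and ESCRT complexes bud vesicles into endosomes that travel to the vacuole. In growing apices this traffic delivers wall material and builds the cell plate at division.

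RNA came from vegetative apices of Arabidopsis thaliana plants grown in short days for 7 days, and 1 Affymetrix array was run per sample. There were 2 arrays each of Columbia plants with the empty plasmid pML_Bart (vector), plants overexpressing miR164b and plants overexpressing miR172a, the last 2 in the Col-0 background. These microRNAs are known repressors, miR164 of NAC genes that set organ boundaries and miR172 of AP2-type genes that delay flowering. The sources used here give neither the promoter nor the number of transgenic lines, nor whether replicate arrays came from separate plants. The spread behind each p-value may therefore be technical. In whole apices, fewer cells of a type and less RNA per cell cannot be told apart.

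Values are scaled intensities, and log2 differences are on the log2(intensity + 16) scale, which understates changes of dim genes. Every array had a trimmed mean of 200, and the median intensity lay between 85.3 and 92.2. Arrays of a group correlated at 0.991 to 0.994 and arrays of different groups at 0.981 to 0.9872. Of 20 symbols listed as shoot apex markers, 4 had a named probe set, and their summed intensity was 245.2 and 250.1 with vector, 209.8 and 242.9 with miR164b, and 189.2 and 190.2 with miR172a. Of these, JAG was lower in miR172a than in vector (limma adjusted p = 0.0396) and LAS lower in miR164b than in miR172a (limma adjusted p = 0.0339). CLV3 and UFO passed in no comparison. In miR172a against vector the log2 differences of JAG, LAS, CLV3 and UFO were -0.71, 0.08, -0.06 and -0.43. In miR164b against vector they were -0.31, -0.43, 0.42 and -0.01. Between the lines, miR164b minus miR172a, they were 0.40, -0.51, 0.48 and 0.42, so the markers did not share a direction. The part of these markers in the results was not tested. No root or leaf mesophyll marker of the lists had a named probe set. The microRNAs were not analysed here. SNZ, a target of miR172, read 236.4 and 209.8 with miR172a against 125.9 and 107.4 with vector, and SMZ, another target, read 170.6 and 177.4 against 162.9 and 157.9. SNZ passed the test as higher in miR172a than in vector (log2 0.85, limma adjusted p = 0.017). It also passed as lower in miR164b than in miR172a (log2 -1.10, limma adjusted p = 0.00726), and SMZ passed in no comparison. SNZ and SMZ were added outside the planned gene lists, and no other target of either microRNA was read here. Neither of them was lower on the miR172a arrays, so these readings gave no check of overexpression and every direction rests on the labels. For the 25S rRNA control, readings of 4069.7 and 4093.3 were found with vector, 443.2 and 528.5 with miR164b, and 355.4 (array 1) and 3462.2 (array 2) with miR172a. Actin control readings at the 3' end over those at the 5' end, a sign of RNA quality, were 3.0 and 2.94 with vector, 1.96 and 2.11 with miR164b, and 2.25 and 3.05 with miR172a.

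PRA1.F1 was the 1 gene of the 30 that passed the test against vector, and it was higher in both overexpressing lines. SECE1, a subunit of the plastid Sec translocase, was the 1 gene that passed between the lines, with lower readings in miR172a. Each of these calls was lost in some alternative settings, as given below. The other 28 genes passed the test in none of the 3 comparisons. The counts were 1 of 30 (3.33%) in each comparison. Of all 22746 probe sets tested, 1.79% passed in miR164b against vector, 5.87% in miR172a against vector and 7.14% between the lines, by limma at a Benjamini-Hochberg adjusted p under 0.05. A single call among 30 genes is too few to set that share apart from the background.

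**Figure D1:**
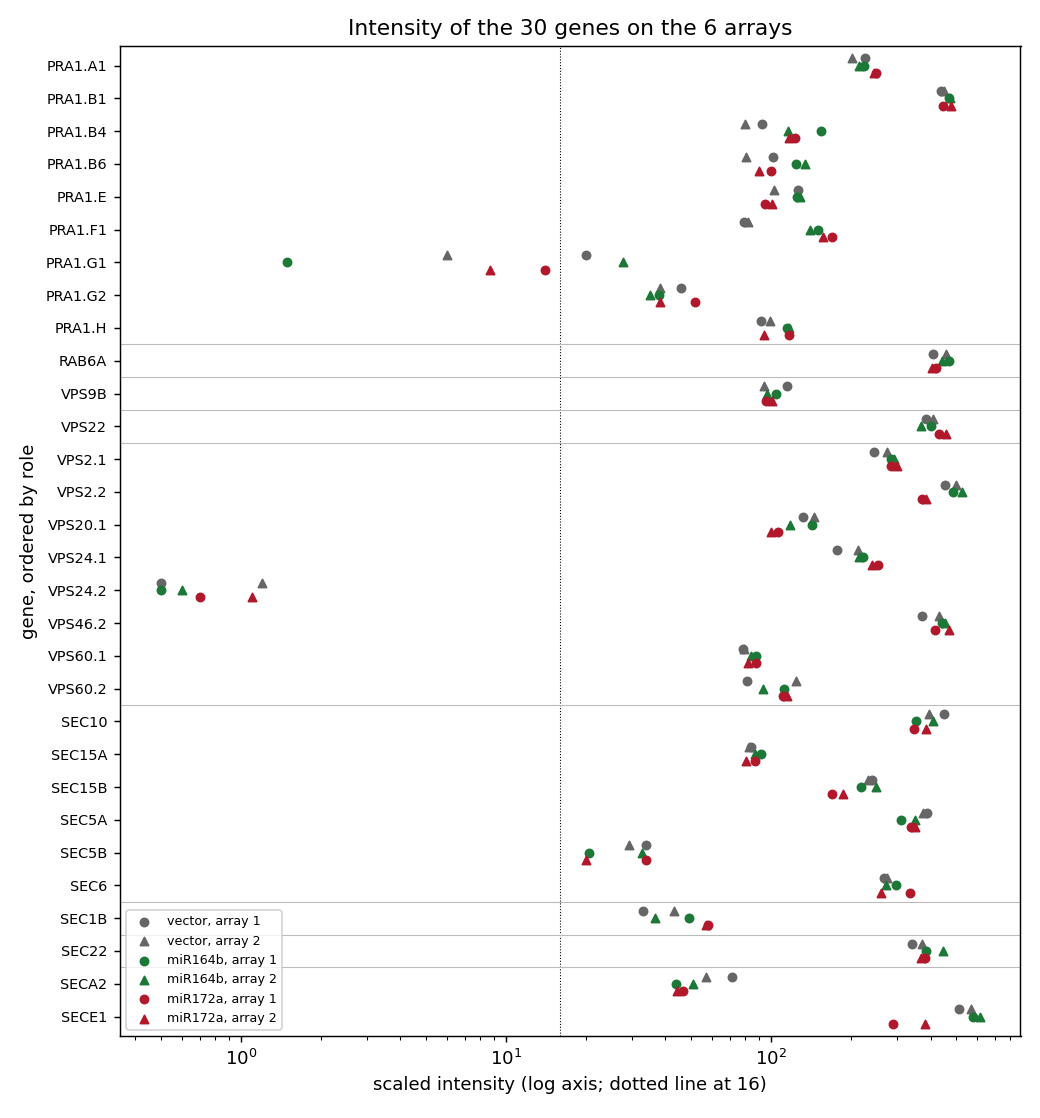
Scaled intensity (x axis, log scale) of the 30 genes (y axis, ordered by role) on each of the 6 arrays, with circles for array 1 and triangles for array 2 of a group. PRA1.F1 is the gene whose 2 vector points (79.1 and 81.8) lie well to the left of all 4 points of the microRNA lines, and VPS24.2 lies at 1.2 or below throughout.

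The symbol rule found 9 PRA1 genes, and the gene table holds 16 symbols of that stem. PRA1.F1 (AT1G17700) read 79.1 and 81.8 with the empty vector, 150.3 and 140.9 with miR164b and 170.1 and 156.6 with miR172a. The vector arrays were the 2 lowest, and neither line overlapped them. In miR164b the mean was 145.6 ± 6.65 (SD, n = 2) against 80.5 ± 1.91 in vector, a ratio of 1.81 and a log2 difference of 0.74 ± 0.09 (SE; limma adjusted p = 0.0241). In miR172a it was 163.4 ± 9.55, a ratio of 2.03 and a log2 difference of 0.89 ± 0.09 (limma adjusted p = 0.00915). Both comparisons use the same vector arrays.

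Between the lines PRA1.F1 differed by a log2 of -0.15, miR164b minus miR172a, with a 95% interval from -0.37 to 0.07 (limma adjusted p = 0.372). Its miR172a readings of 170.1 and 156.6 came with 25S rRNA readings of 355.4 and 3462.2 and actin 3' to 5' ratios of 2.25 and 3.05. In miR164b both controls lay apart from vector on both arrays, and their part in the PRA1.F1 result was not tested. The call in miR164b was lost in 9 of 15 alternative settings. These were an offset of 1, only the arrays of the 2 groups, the replicate block (limma adjusted p = 0.0557) and leaving out any one of the 6 arrays. Leaving out a miR172a array gave the same fit as the arrays of the 2 groups alone, so these losses are not separate. Over all 15 settings the log2 difference in miR164b stayed between 0.54 and 0.85. The call in miR172a was lost in 4, without either vector array or either miR172a array, where the limma adjusted p was 0.0548 to 0.0639 and the log2 difference 0.84 to 0.95.

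PRA1.B4 and PRA1.B6, of the B group of the family, had the next largest differences in miR164b. PRA1.B4 read 154.6 and 115.9 in miR164b and 123.1 and 117.1 in miR172a against 92.8 and 79.7 in vector. The vector arrays were again the lowest, yet neither difference passed (log2 0.56, limma adjusted p = 0.142, and log2 0.41, limma adjusted p = 0.18), and the 2 miR164b arrays were far apart. PRA1.B6 read 124.8 and 133.9 in miR164b, 101.4 and 80.5 in vector and 99.6 and 90.1 in miR172a. Its miR164b arrays lay above all the others, while vector and miR172a overlapped (log2 0.45 in miR164b, limma adjusted p = 0.149, and 0.06 in miR172a, limma adjusted p = 0.85). Its difference between the lines was 0.39, with a 95% interval from 0.09 to 0.69 (limma adjusted p = 0.126). Without the 40% dimmest probe sets, both genes passed in miR164b (limma adjusted p = 0.0426 and 0.0494), and fewer probe sets are adjusted for there.

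The remaining PRA1 genes varied less. PRA1.H read 115.4 and 117.4 in miR164b, 91.4 and 99.4 in vector and 116.5 and 93.9 in miR172a, so that miR164b lay above vector and the miR172a arrays spanned both. PRA1.E read 125.6 and 128.3 in miR164b, 126.8 and 102.3 in vector and 95.1 and 100.8 in miR172a, with miR172a the lowest group. Its log2 difference between the lines was 0.33 (limma adjusted p = 0.156). PRA1.A1 read 248.9 and 244.2 in miR172a, 225.6 and 202.0 in vector and 224.7 and 214.6 in miR164b, so miR172a lay highest by a small margin (log2 0.19 against vector, limma adjusted p = 0.292).

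PRA1.B1 had the brightest probe set of the family and one of its tightest, at 467.3 and 472.0 in miR164b, 436.6 and 448.7 in vector and 445.0 and 477.5 in miR172a. All its 95% intervals lay between log2 -0.18 and 0.29. PRA1.G2 read 51.9 and 38.1 in miR172a, 45.9 and 38.0 in vector and 37.7 and 35 in miR164b. These arrays differed as much within miR172a as between groups. PRA1.G1 was dim and erratic, with 1.5 and 27.6 in miR164b, 20 and 6.0 in vector and 14 and 8.7 in miR172a. Its 95% intervals ran from log2 -1.18 to 1.16, so no direction is given.

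Across the 9 PRA1 genes the median log2 difference was 0.14 in miR164b against vector, where the median of all probe sets was -0.05. It was 0.07 in miR172a and 0.03 between the lines, beside -0.00 and -0.06 for all probe sets. With PRA1.F1 left out, the other 8 had medians of 0.11 in miR164b and 0.06 in miR172a. The medians depended on single arrays: in miR164b the value was 0.27 without vector array 1, 0.26 without miR164b array 1 and 0.10 without vector array 2. In miR172a it was 0.20 without vector array 1, 0.21 without miR172a array 2 and -0.01 without miR172a array 1.

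PRA7 and PRA8 are PRA1.F2 and PRA1.F3 by their synonyms in the gene table, the closest relatives of PRA1.F1 by name, and fall outside the symbol rule. They were added once the annotation had been seen and are not in the medians above. PRA7 read 350.1 and 321.8 in miR164b, 235.8 and 199.0 in vector and 242.7 and 272.1 in miR172a. Its arrays did not overlap between either line and vector, with log2 differences of 0.60 in miR164b (limma adjusted p = 0.0807) and 0.23 in miR172a (limma adjusted p = 0.333). PRA8 read 362.7 and 297.7 in miR164b, 224.5 and 257.4 in vector and 266.1 and 259.5 in miR172a (log2 0.43 in miR164b, limma adjusted p = 0.165). Both genes read highest on the miR164b arrays and neither passed the test. PRA7 in miR164b passed in 4 of 15 other settings (lowest limma adjusted p = 0.0167). Among these was the same fit read at an adjusted p under 0.1.

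**Figure D2:**
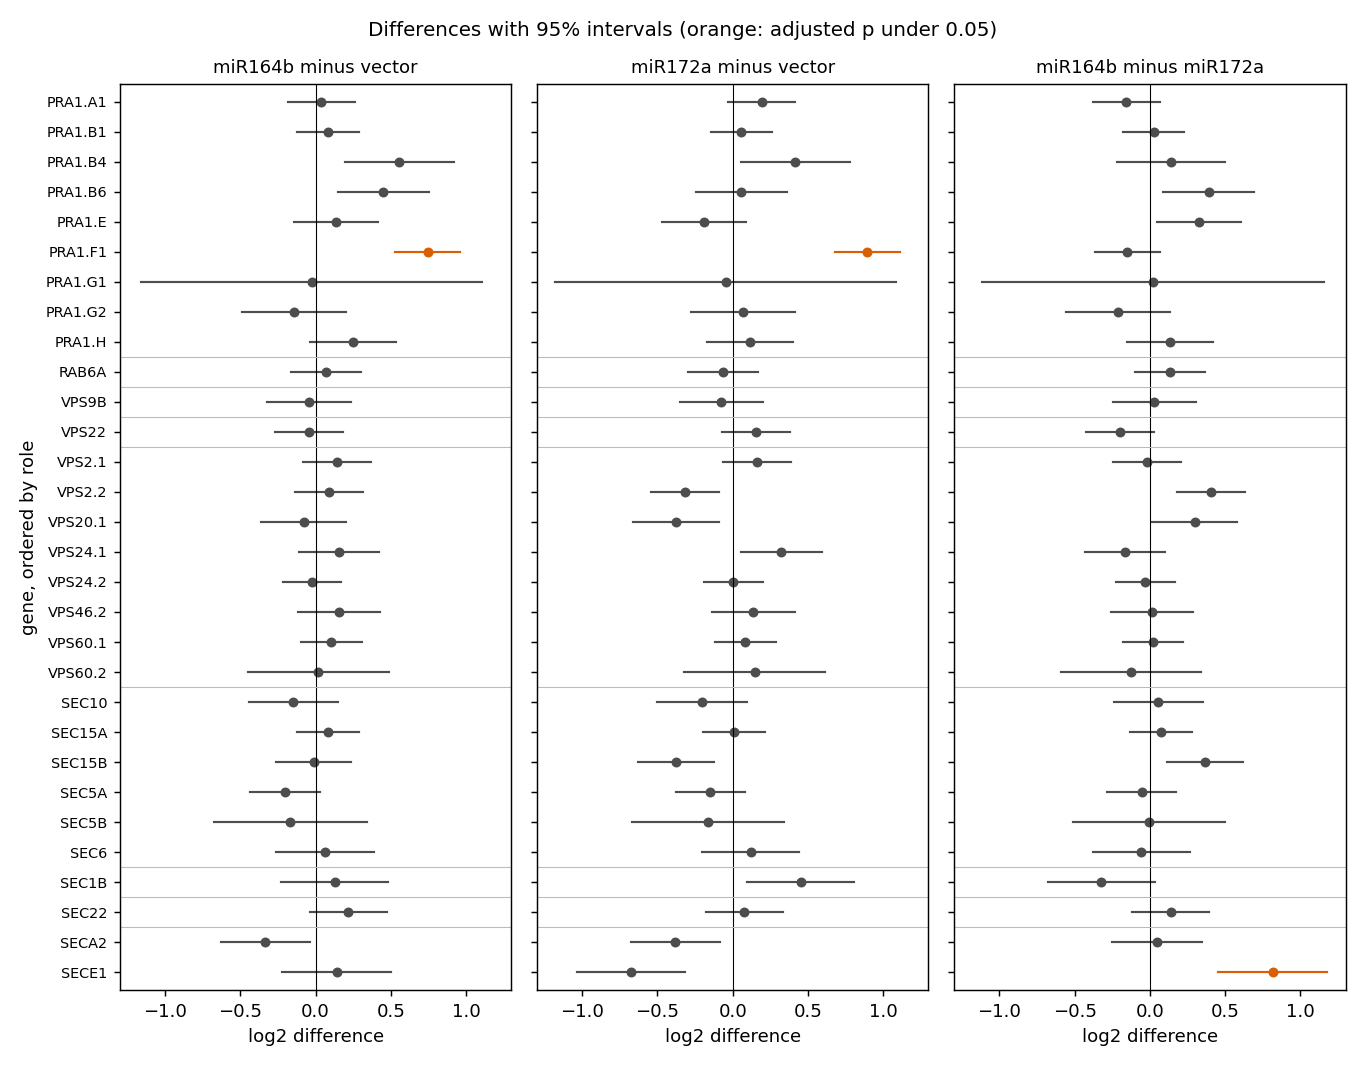
Log2 difference (x axis) with its 95% interval for each of the 30 genes (y axis) in the 3 comparisons, with orange marking an adjusted p under 0.05. The orange points are PRA1.F1 in both comparisons with vector (0.74 and 0.89) and SECE1 between the lines (0.82), and the widest intervals belong to PRA1.G1.

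Of the Rab GTPases and their regulators, the symbol rule found 2 genes besides the PRA1 family. RAB6A (AT2G44610, also RABH1B), a GTPase of the Golgi, read 470.9 and 439.9 in miR164b, 409.7 and 456.6 in vector and 420.3 and 405.9 in miR172a. VPS9B (AT5G09320), related to the exchange factor VPS9A that activates endosomal Rab GTPases, read 104.6 and 96.5, 115.1 and 94.2, and 95.7 and 100.6 in the same order. For both genes each line overlapped vector, and no log2 difference exceeded 0.14 in size. The 95% intervals lay between -0.35 and 0.37.

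The symbol rule found 9 ESCRT genes. VPS22 is of ESCRT-II, and 8 genes are of ESCRT-III and its associated subunits, which assemble on endosomes and cut off inward-budding vesicles. None passed in any comparison by limma, and the count at an unadjusted p under 0.05 was 0 of 9 in miR164b against vector, 3 in miR172a against vector and 2 between the lines, where 18.5%, 21.3% and 23.8% of all probe sets were. In miR164b all 9 log2 differences lay between -0.08 and 0.16. In miR172a they spread from -0.38 to 0.32, with VPS2.2 and VPS20.1 on the low side and VPS24.1 on the high side.

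VPS2.2 (AT5G44560), an ESCRT-III subunit, read 372.8 and 383.7 in miR172a against 454.7 and 497.0 in vector and 486.7 and 527.2 in miR164b. The miR172a arrays were the 2 lowest, by a log2 of -0.32 from vector (limma adjusted p = 0.117) and with a difference of 0.41 between the lines (limma adjusted p = 0.059). That last difference passed in 5 of 15 other settings, median centring among them (lowest limma adjusted p = 0.00984). Another of these was the same fit read at an adjusted p under 0.1. VPS20.1 (AT5G63880), the counterpart of the yeast subunit that starts the ESCRT-III polymer, read 106.0 and 99.7 in miR172a, 132.1 and 144.7 in vector and 143.3 and 117.8 in miR164b. The miR172a arrays were again the lowest pair (log2 -0.38 from vector, limma adjusted p = 0.132). VPS24.1 (AT5G22950) went the other way, with 252.9 and 241.3 in miR172a, 177.1 and 212.6 in vector and 222.3 and 214.4 in miR164b (log2 0.32 from vector, limma adjusted p = 0.16).

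VPS2.1 (AT2G06530) shares its subunit with VPS2.2 and read 284.2 and 298.6 in miR172a, 244.5 and 274.2 in vector and 284.0 and 291.5 in miR164b. The ratio of the VPS2.1 to the VPS2.2 reading within an array was 0.762 and 0.778 in miR172a, 0.584 and 0.553 in miR164b, and 0.538 and 0.552 in vector. This is a ratio of readings, not of transcript numbers, and it lay higher on both miR172a arrays than on the other 4. Ratios were taken for 4 such gene pairs in 3 comparisons. The exact two-sided permutation test of 2 arrays against 2 gave p = 0.333, the smallest it can give (0.799 adjusted over the 12 comparisons), so this test could not have called a difference, and no other test of the ratio was run.

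The other ESCRT genes overlapped or differed by little. VPS22 (AT4G27040) read 428.5 and 457.0 in miR172a, 384.9 and 408.2 in vector and 400.8 and 368.1 in miR164b. VPS46.2 (AT1G73030, also CHMP1A) had means of 401.7 ± 42.4 in vector, 447.6 ± 7.21 in miR164b and 443.1 ± 38.1 in miR172a (SD, n = 2). VPS60.1 had means of 78.9 ± 0.283, 86.1 ± 2.40 and 84.6 ± 4.24 in the same order, so both lines lay above vector by under a log2 of 0.11. VPS60.2 read 81.1 and 124.1 on the vector arrays alone, a wider range than its other 4 arrays covered. VPS24.2 (AT3G45000) read 0.5 to 1.2 on all 6 arrays, so no level can be compared, while VPS24.1 of the same subunit read 177.1 or more.

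The exocyst is an octameric tether, and the symbol rule found 6 genes for 4 of its subunits. None passed by limma in any comparison, with 0, 1 and 1 of 6 at an unadjusted p under 0.05 in miR164b, in miR172a and between the lines (18.5%, 21.3% and 23.8% of all probe sets). SEC15B (AT4G02350) stood lowest in miR172a, at 169.3 and 186.8 against 240.7 and 231.4 in vector and 218.6 and 249.6 in miR164b (log2 -0.38 from vector, limma adjusted p = 0.101). Its difference between the lines was 0.36 (limma adjusted p = 0.0985). With an intensity trend, an offset of 64 or fewer probe sets, SEC15B passed both comparisons, at a limma adjusted p of 0.0307 at the lowest. SEC15A (AT3G56640), the other gene of that subunit, read 87.2 and 80.8 in miR172a, 84.2 and 82.8 in vector and 91.7 and 86.9 in miR164b. The ratio of the SEC15A to the SEC15B reading was 0.515 and 0.433 on the miR172a arrays, above the 0.348 to 0.419 of the other 4 (exact permutation p = 0.333, adjusted 0.799).

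SEC5A (AT1G76850) read 310.2 and 350.4 in miR164b, 337.5 and 348.2 in miR172a and 388.7 and 375.2 in vector. Both lines lay below vector without overlap, by log2 differences of -0.20 (limma adjusted p = 0.316) and -0.15 (limma adjusted p = 0.432). SEC10 (AT5G12370) read 345.9 and 383.7 in miR172a, 351.6 and 410.0 in miR164b and 449.9 and 396.2 in vector. It too lay lower in miR172a, but miR164b overlapped vector. SEC6 (AT1G71820) had means of 270.6 ± 4.60, 283.7 ± 17.6 and 297.3 ± 51.5 in vector, miR164b and miR172a, with miR172a array 1 alone at 333.7. SEC5B was dim, at 20 to 33.8 over the 6 arrays, and its groups overlapped in every comparison.

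The fusion factors found by the symbol rule were SEC1B and SEC22. SEC1B (AT4G12120), of the Sec1/Munc18 family that binds SNAREs, read 57.8 and 56.9 in miR172a, 32.9 and 42.9 in vector and 49.2 and 36.6 in miR164b. The miR172a arrays were the highest pair, and the log2 difference from vector was 0.45, with a 95% interval from 0.10 to 0.81 (limma adjusted p = 0.146). SEC22 (AT1G11890), a SNARE of traffic between endoplasmic reticulum and Golgi, read 385.8 and 445.3 in miR164b, 339.0 and 370.3 in vector and 380.9 and 368.8 in miR172a. Its miR164b arrays lay above all the others (log2 0.22 from vector, limma adjusted p = 0.333).

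The plastid genes caught by the SEC stem gave the second of the calls. SECE1 (AT4G14870), a membrane subunit of a plastid Sec translocase, read 578.8 and 612.0 in miR164b, 510.8 and 568.2 in vector and 287.8 and 380.3 in miR172a. Both miR172a arrays lay far below the other 4. The lines differed by a log2 of 0.82 ± 0.15 (SE), with means of 595.4 ± 23.5 in miR164b and 334.1 ± 65.4 in miR172a (SD, n = 2; limma adjusted p = 0.033). Against vector, miR172a differed by -0.68 ± 0.15, which missed the threshold (limma adjusted p = 0.0588). That difference passed in 4 of 15 other settings (lowest limma adjusted p = 0.0118), among them the same fit read at an adjusted p under 0.1. In miR164b it differed by 0.14 (limma adjusted p = 0.658).

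The call for SECE1 between the lines was lost in 7 of 15 settings. These were an offset of 1, only the arrays of the 2 groups, and leaving out any one array other than miR172a array 2. Leaving out a vector array gave the same fit as the arrays of the 2 groups alone, so these losses are not separate. The log2 difference was 0.63 without miR172a array 1 and 1.01 without miR172a array 2, at limma adjusted p-values of 0.0972 and 0.0497. The 25S rRNA control was low on both miR164b arrays and on miR172a array 1, and its part in the SECE1 result was not tested.

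SECA2 (AT1G21650), a plastid Sec motor ATPase, read 43.9 and 51.0 in miR164b, 46.4 and 44.3 in miR172a and 71.5 and 56.9 in vector. Both lines lay below vector without overlap, but the vector arrays themselves were far apart. The log2 differences were -0.33 (limma adjusted p = 0.23) and -0.38 (limma adjusted p = 0.142), and the lines differed by 0.05.

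**Figure D3:**
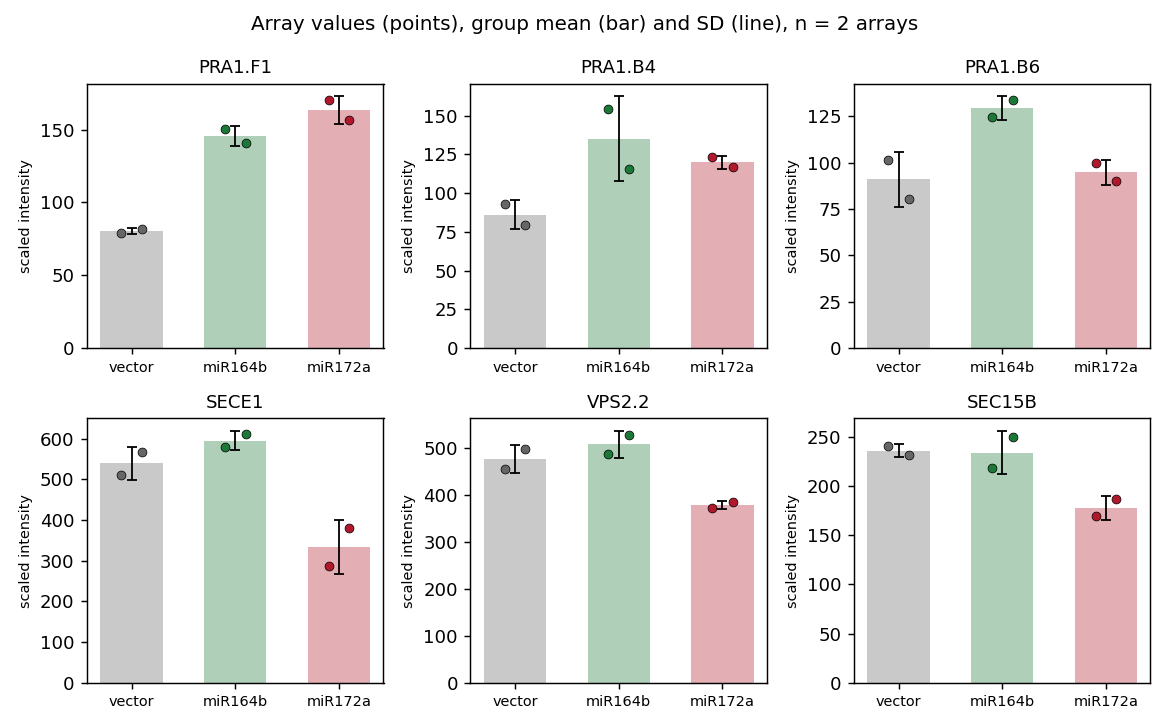
Scaled intensity (y axis, from 0) of 6 genes in the 3 groups, with a point per array, the group mean as a bar and the SD as a line (n = 2). PRA1.F1 is high in both lines and SECE1 low in miR172a, and of the other 4, which did not pass, PRA1.B4 has vector lowest, PRA1.B6 has miR164b highest, and VPS2.2 and SEC15B have miR172a lowest.

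Taken over all 30 genes, the median log2 difference was 0.08 in miR164b against vector, 0.06 in miR172a against vector and 0.02 between the lines, beside -0.05, -0.00 and -0.06 over all probe sets. In miR164b against vector, 12 genes lay above vector without overlap of the arrays and 3 below. Over all probe sets 19.1% lay above and 32.5% below, and the miR164b arrays had the lowest median intensities, at 86.3 and 85.3. In miR172a, 8 lay above and 8 below, with 24.9% and 23.8% of all probe sets. Between the lines 8 lay higher in miR164b and 7 lower, with 19.4% and 34.0% of all probe sets. At an unadjusted p under 0.05 there were 4, 9 and 6 genes in the 3 comparisons, where 18.5%, 21.3% and 23.8% of all probe sets were. These genes were chosen with earlier results known, and nothing is read from those shares.

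The spread between the 2 arrays of a group bounds what could be seen. Its median over the 30 genes was a log2 of 0.15 in vector, 0.10 in miR164b and 0.08 in miR172a. Over all probe sets it was 0.12, 0.11 and 0.13, so the 30 genes spread more in vector and less in miR172a. In simulated arrays, 60.7% of changes of 1 on the log2 scale were recovered in miR164b against vector but 1.04% of changes of 0.5. The corresponding shares were 55.8% and 1.19% in miR172a against vector and 58.5% and 1.49% between the lines. The simulation changed 200 probe sets per comparison, whereas 407, 1336 and 1623 passed in the data. With fewer changed probe sets the adjusted threshold is stricter, so these shares may understate what could be called here. The simulated noise was also drawn without regard to intensity, and the effect of this on the shares was not tested. Of the 30 genes, 28 had differences under 0.5 in each comparison with vector and 29 between the lines. A missing call at that size does not show that a gene was unchanged.

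Other genes of membrane traffic were read from lists of 213 symbols. A named probe set was found for 11 genes, after CHC1 and SLY1 had been set aside because these symbols belong here to a chromatin gene and to a gibberellin signalling gene. None of the 11 passed in any comparison by limma, with 2, 0 and 2 at an unadjusted p under 0.05 in miR164b, in miR172a and between the lines (18.5%, 21.3% and 23.8% of all probe sets). Their log2 differences lay between -0.25 and 0.26. The largest in miR164b were those of MAG2, a tether at the endoplasmic reticulum, which read 80.6 and 93.1 against 69.7 and 71.7 in vector (log2 0.24, limma adjusted p = 0.25), and of ELC, an ESCRT-I subunit, which read 160.6 and 157.9 against 183.7 and 194.4 (log2 -0.23, limma adjusted p = 0.224). In miR172a the largest were YKT61, a SNARE, at 611.5 and 521.4 against 422.5 and 521.9 (log2 0.26, limma adjusted p = 0.345), and SNF7.1, of ESCRT-III, at 99.7 and 93.7 against 89.9 and 72.6 (log2 0.22, limma adjusted p = 0.426). ARA6, a Rab GTPase of endosomes, read 473.6 to 522.5 on all 6 arrays, and the exocyst subunit EXO84B read 289.4 to 312.4.

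**Figure D4:**
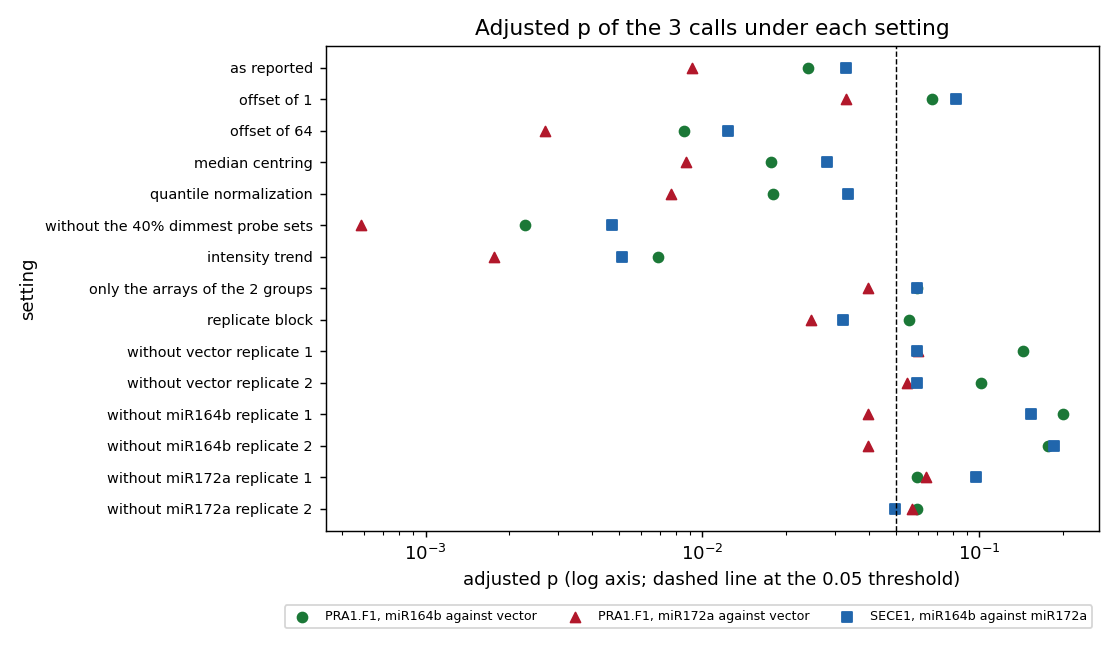
Adjusted p (x axis, log scale) of the 3 calls under the reported setting and 14 others (y axis), with the 0.05 threshold dashed. PRA1.F1 in miR172a crosses the threshold in 4 settings and by little, and the other calls cross it in 9 and 7. Leaving out an array of the group not compared repeats the fit of the 2 groups alone.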

How the data were processed

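The authors deposited 1 linear intensity per probe set and array for 22810 probe sets; the summary and scaling software is not given in the sources used here, and no negative value was present. The 64 control probe sets were left out, leaving 22746. Probe sets were named through the array annotation supplied with the data (13513 with 1 gene, 503 with several, 8730 unlisted) and locus tags came from the TAIR10.1 gene table, which matched all 30 genes. Values were transformed as log2(intensity + 16), without further normalization. A linear model of the 3 group means was fitted over the 6 arrays in limma 3.58.1 (R 4.3.3), with 3 residual and 2.69 prior degrees of freedom. Benjamini-Hochberg adjustment ran over every probe set of a comparison (threshold 0.05, two-sided). Groups came from the sample descriptions and replicate numbers from the letter ending each title. The correlation of same-numbered arrays' deviations was -0.01, 0.10 and 0.08 for the 3 pairs of groups, so the numbers were not used in the fit. The method was tested on 10 simulated draws with 200 changed probe sets per comparison. Alternatives were other offsets, scalings, filters and fits, leaving out each array, and an adjusted p under 0.1. The looser threshold reads the reported fit again, so it cannot lose a call. Leaving out an array of the group not compared gives the same fit as the arrays of the 2 groups alone.

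The genes and lists were chosen with earlier results of these data known. Genes are named by rule: every PRA1 gene, every gene past the threshold, and for each stem the brightest, the dimmest and the largest differences; other genes are given for completeness. Detection calls were not used. Precision is limited by having 2 arrays per group. Figures used Python 3.11.15 and matplotlib 3.10.9.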

Additional observations from a re-analysis of the deposited data

Results flagged for a closer look

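SECE1 was the 1 gene of the 30 that passed the direct test between the lines, with a log2 of 0.82, miR164b minus miR172a (limma adjusted p = 0.033). Against the shared vector arrays it differed by 0.14 in miR164b and -0.68 in miR172a, and neither passed on its own as reported. The difference in miR172a passed in 4 of 15 other settings (lowest limma adjusted p = 0.0118), among them the same fit read at an adjusted p under 0.1. Its miR172a arrays were also the most unlike each other among the 3 groups, at 287.8 and 380.3.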

How the results depend on the processing

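Calls were lost without single arrays while the PRA1.F1 difference stayed at 0.70 to 0.79 in miR164b and 0.84 to 0.95 in miR172a. The miR164b call was also lost without a miR172a array, where the difference was unchanged at 0.74 and the fit had fewer residual degrees of freedom. That fit is the same as with the arrays of the 2 groups alone. The number of the 30 genes called, 1 in each comparison, was 0 without any one array in miR164b against vector, and ranged from 0 to 1 in miR172a against vector and between the lines. In miR164b against vector it was 0 with an offset of 1, with the arrays of the 2 groups alone and with the replicate block, and 3 without the 40% dimmest probe sets. In miR172a it was 4 with an offset of 64, 5 without the dimmest probe sets, 4 with an intensity trend and 2 at an adjusted p under 0.1. Between the lines it was 0 with an offset of 1 and with the 2 groups alone, 3 with an offset of 64, 2 with median centring, 4 without the dimmest probe sets, 3 with an intensity trend and 3 at an adjusted p under 0.1.

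Over all probe sets the counts of 407, 1336 and 1623 became 103, 406 and 683 with an offset of 1, and 916, 2241 and 2707 with an offset of 64. They were 1148, 2419 and 2979 without the dimmest probe sets, 1068, 2263 and 2724 with an intensity trend, 144, 359 and 1018 with the 2 groups alone, and 964, 2412 and 2948 at an adjusted p under 0.1. With the replicate block they were 186, 795 and 1104; it ended the PRA1.F1 call in miR164b and no other of the 3 calls. Without 1 array they ranged from 9 to 144, 111 to 359 and 102 to 1018. Median centring moved the share of higher calls between the lines from 43.6% to 60.3%.

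The PRA1 median ranged without 1 array from 0.10 to 0.27 in miR164b, from -0.005 to 0.207 in miR172a and from -0.001 to 0.161 between the lines; without the dimmest probe sets it was 0.25 in miR164b and 0.13 between the lines, where PRA1 genes drop out. No member that was called changed sign under any of these settings. The cause of the other changes was not tested.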
